A study of Mus musculus with 12 samples.

Results

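The genomic placement of H3K9me3 was compared with that of H3K4me3 in wild-type mouse embryonic stem cells on chromosomes 1 to 19. For each mark, overlapping peaks of its 2 libraries were merged into regions, and a region was kept where both libraries had a peak in it. This left 15297 of 45809 merged H3K9me3 regions (33.4%) and 17179 of 20992 merged H3K4me3 regions (81.8%), which is 32476 of the 66801 merged regions of these marks. The whole series held 98983 merged wild-type regions once H3K27ac was added.

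The cells were E14TG2a, an established line of mouse embryonic stem cells, with the genotype given as WT. They were grown in serum medium (15% FBS) with LIF at 1000 U/ml and the inhibitors PD0325901 at 1 µM and CHIR99021 at 3 µM, which block MEK and GSK3. H3K9me3 was profiled by CUT&RUN, in which a nuclease cuts at antibody-bound chromatin, and H3K4me3 by CUT&Tag, in which a transposase inserts adapters there. The series also holds H3K27ac and a genotype lacking the C-terminal disordered region of ALKBH5 (del-cIDR), which were used here only as further readouts. The labels do not say whether replicates came from separate cultures, so p-values here reflect only how far these libraries differ, possibly for technical reasons alone. Each mark came with its own method and its own kind of peak call, broad for H3K9me3 and narrow for H3K4me3, so mark, method and call cannot be told apart.

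Trimethylation of histone H3 at lysine 9 is a mark of heterochromatin. In embryonic stem cells SETDB1, brought to DNA by TRIM28 and KRAB zinc-finger proteins, places it over many retroviral repeats, while the SUV39H enzymes place it at pericentromeric satellites, and HP1 proteins bind it. Trimethylation at lysine 4 is placed by the SET1 and MLL complexes, marks the starts of active and poised genes, and is strongest at CpG islands, to which CXXC1 brings the SET1 complex.

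The H3K9me3 libraries differed from each other far more than the H3K4me3 libraries did. H3K9me3 replicate 1 had 20895 peaks over 9.85 Mb and replicate 2 had 41183 peaks over 29.6 Mb, while the H3K4me3 libraries had 19055 and 19242 peaks over 19.6 and 19.9 Mb. H3K9me3 replicate 1 thus covered the least sequence of the 4 libraries and replicate 2 the most. The mean peak number was 31039 ± 14346 (SD, n = 2) for H3K9me3 and 19148.5 ± 132 (SD, n = 2) for H3K4me3. The exact permutation test of 2 libraries against 2, two-sided, gave p = 0.333, which is the smallest it can give. The log2 ratio of peak numbers, H3K9me3 over H3K4me3, was 0.70, and it was 1.10 without H3K9me3 replicate 1 and 0.13 without replicate 2. Covered length, 19.7 ± 14.0 Mb against 19.7 ± 0.246 Mb (SD, n = 2 each), did not differ beyond that spread (exact permutation p = 1), and without H3K9me3 replicate 1 its log2 ratio of H3K9me3 over H3K4me3 was 0.59. Within a mark, the bases covered in both libraries were 21.4% of the bases covered in either for H3K9me3 and 79.0% for H3K4me3.

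Regions kept by the rule held most peaks of the shorter H3K9me3 list and a minority of the longer one. They contained 77.3% of the peaks of H3K9me3 replicate 1 and 37.4% of those of replicate 2, against 90.6% and 89.5% for H3K4me3. Fold enrichment, a ratio over background that the authors deposited for each peak and that is used here only within its own list, separated kept from other peaks in H3K4me3. Its median inside and outside the kept regions was 9.15 and 4.67 in H3K4me3 replicate 1, and 9.13 and 4.51 in replicate 2. In H3K9me3 the same medians were 3.72 and 3.63 in replicate 1, and 3.52 and 3.43 in replicate 2. Kept H3K9me3 peaks were wider than the others, with medians of 443 against 176 bp in replicate 1 and 1004 against 416 bp in replicate 2. Kept H3K4me3 peaks were wider too, at 1024 against 437 bp and 1036 against 451 bp. A wide peak more easily shares a base with a peak of the other library, so the rule itself favours width. Most kept regions were also found in the del-cIDR cells, where both libraries had a peak of the same mark in 85.9% of the H3K9me3 regions and 90.7% of the H3K4me3 regions.

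Density was measured in 2469 windows of 1 Mb. H3K9me3 regions were spread more evenly over the genome than H3K4me3 regions. Both marks were present in 2008 windows, H3K9me3 alone in 340, H3K4me3 alone in 59 and neither in 62, of which 57 were the first 3 Mb of the chromosomes. A window held a median of 5 H3K9me3 regions (90th percentile 12, maximum 66) and 4 H3K4me3 regions (90th percentile 17, maximum 53). The 247 windows with the most covered bases of a mark, the top 10%, held 26.4% of the H3K9me3 bases and 37.8% of the H3K4me3 bases. The same share in single libraries was 26.96% and 23.8% for H3K9me3 and 37.5% and 37.6% for H3K4me3, so the libraries of the marks did not overlap in it. The Gini coefficient, which is 0 where all windows hold the same amount, was 0.401 for H3K9me3 and 0.579 for H3K4me3. The boundary of the top 10% lay at 14.2 kb on both sides for H3K9me3, and between 20.6 and 20.7 kb for H3K4me3.

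Across windows, more H3K4me3 went with less H3K9me3, and the relation was weak. The Spearman correlation of covered bases was -0.16 over 2469 windows and -0.24 over the 2407 windows with any region. The 4 pairings of one H3K9me3 with one H3K4me3 library gave values from -0.21 to -0.16. These are descriptions, since neighbouring windows and the shared libraries make the points dependent. Between replicates the correlation was 0.87 for H3K9me3 and 0.99 for H3K4me3, and H3K4me3 regions gave 0.87 with H3K27ac, a mark of active promoters and enhancers. When only peaks with a −log10 q of at least 2 were used, the correlation was 0.032, with 3023 H3K9me3 regions remaining.

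The decline lay mainly in windows dense in H3K4me3. Windows with no H3K4me3 region held a mean of 7.11 H3K9me3 regions, those with 3 to 5 held 6.79, those with 11 to 20 held 5.25 and the 169 windows with over 20 held 4.37. At the H3K9me3 end the medians did not differ, at 4 H3K4me3 regions both inside and outside the windows richest in H3K9me3. The windows outside included the 57 at chromosome starts that held neither mark, and means were not compared there. Both H3K9me3 libraries were lower where H3K4me3 was dense. Relative to the library's mean over windows, covered length went from 1.10 without H3K4me3 to 0.672 above 20 regions in replicate 1, and from 1.15 to 0.655 in replicate 2.

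**Figure D1:**
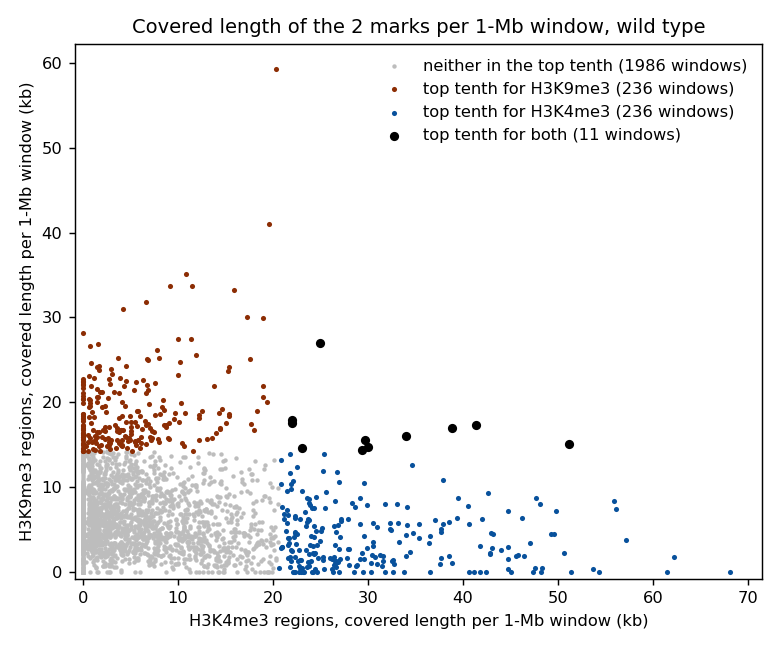
Covered length of kept H3K4me3 regions (x axis, kb) against that of kept H3K9me3 regions (y axis, kb) in each 1-Mb window of chromosomes 1 to 19, wild type, with window classes in colour. The 5 windows with the most H3K4me3 hold 0 to 5 H3K9me3 regions, while the 5 with the most H3K9me3 hold 8 to 22 H3K4me3 regions, and the 11 windows rich in both lie above 14.2 kb of H3K9me3 and 20.7 kb of H3K4me3.

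A window was said to lean to a mark where both libraries of that mark put at least 2 times the share of their covered bases into it that both libraries of the other mark did. Of 2407 windows with any region, 968 (40.2%) leaned to H3K9me3, 508 (21.1%) leaned to H3K4me3 and 931 leaned to neither. The 968 windows held 53.8% of the H3K9me3 bases and 7.73% of the H3K4me3 bases. The 508 windows held 54.6% of the H3K4me3 bases and 8.78% of the H3K9me3 bases. More than 50% of each mark thus lay in megabases that leaned to it. The windows were chosen by the shares of these same libraries, so the contrast between the marks inside them follows from the rule. The number of such windows that independent placement would give was not computed.

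The 5 windows with the most H3K9me3 lay on chromosomes 4, 13 and 12. The first, chromosome 4 from 147 to 148 Mb, had 66 H3K9me3 regions over 59.3 kb, and its covered length by library was 32.6 and 75.04 kb for H3K9me3 and 19.6 and 21.0 kb for H3K4me3. Its neighbour from 146 to 147 Mb had 56 regions over 41.0 kb. Both windows also held over 20 H3K4me3 regions, 21 and 22, and ranked at the 89.8 and 88.8 percentiles for H3K4me3, so they fell just short of being rich in both. The median H3K9me3 region in them lay 8.16 and 7.92 kb from H3K4me3, close to the 8.76 kb of chromosome 19 from 5 to 6 Mb, a window with few H3K9me3 regions. The other windows were chromosome 13 from 66 to 67 Mb (45 regions), chromosome 12 from 20 to 21 Mb (36 regions) and from 18 to 19 Mb (32 regions), with 13, 9 and 8 H3K4me3 regions.

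The 5 windows with the most H3K4me3 were on chromosomes 11, 10 and 19. Chromosome 11 from 97 to 98 Mb had 53 H3K4me3 regions over 68.1 kb and no H3K9me3 region. H3K4me3 covered 64.0 and 66.3 kb of it in the 2 libraries, while H3K9me3 covered 0 kb in replicate 1 and 0.146 kb in replicate 2. Chromosome 11 from 69 to 70 Mb was alike, with 45 H3K4me3 regions and 0 of H3K9me3. Chromosome 10 from 80 to 81 Mb had 48 against 2, chromosome 19 from 5 to 6 Mb had 46 against 3, and chromosome 11 from 120 to 121 Mb had 41 against 5. All 5 leaned to H3K4me3.

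Windows rich in both, in the top 10% for each mark, numbered 11, where independent ranks would give 24.7. Leaving out H3K9me3 replicate 1 gave 6 such windows, and using only peaks with a −log10 q of at least 2 gave 16. The highest by the lower of its percentiles was chromosome 13 from 23 to 24 Mb, with 17 H3K9me3 and 37 H3K4me3 regions. H3K9me3 covered 9.08 and 20.7 kb there in replicates 1 and 2, and H3K4me3 covered 38.5 and 42.9 kb. Next came chromosome 7 from 140 to 141 Mb with 12 and 31 regions, chromosome 6 from 122 to 123 Mb with 17 and 18, and chromosome 6 from 124 to 125 Mb with 14 and 28. Chromosome 6 from 122 to 123 Mb was the most balanced of these, with 27.03 kb of H3K9me3 and 24.96 kb of H3K4me3. The others named by rank were chromosome 7 from 12 to 13 and from 18 to 19 Mb, chromosome 8 from 71 to 72 and from 72 to 73 Mb, chromosome 18 from 37 to 38 Mb and chromosome 6 from 85 to 86 Mb.

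Windows rich in both were not seen to share more bases than others. Among the 142 H3K9me3 and 291 H3K4me3 regions of the 11 windows, 0 overlapped the other mark. The share over all H3K9me3 regions, 0.523%, would give 0.743 of 142, so this count is near the background. It allows a share of up to 2.11% if the 142 regions are taken as independent. They come from 11 windows and the same libraries, so the limit may be higher. The median H3K9me3 region in them lay 81.2 kb from the nearest H3K4me3 region, against 92.7 kb in the 1997 other windows that held both marks. In the 236 windows rich in H3K4me3 only, which held 6006 H3K4me3 regions, that median was shorter, at 25.8 kb. These distances were not corrected for the density of H3K4me3, which differs between the classes. In chromosome 7 from 18 to 19 Mb the smallest distance between the marks was 124 kb, so both marks there filled different stretches of the megabase. In chromosome 7 from 12 to 13 Mb the closest regions were 0.043 kb apart.

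By chromosome, H3K4me3 varied more than H3K9me3. H3K9me3 ranged from 4.52 regions per Mb on chromosome 19 to 8.14 on chromosome 8, a ratio of 1.80, and H3K4me3 from 4.88 on chromosome 14 to 11.4 on chromosome 11, a ratio of 2.34. Chromosomes 11 and 19 were high in H3K4me3 and low in H3K9me3 in every library. On chromosome 11, covered length relative to the library mean was 1.70 and 1.70 for H3K4me3 and 0.741 and 0.757 for H3K9me3. On chromosome 19 the same values were 1.36 and 1.34 against 0.728 and 0.770. Chromosomes 8 and 6 were highest in H3K9me3 in both libraries, at 1.37 and 1.15 on chromosome 8 and 1.34 and 1.23 on chromosome 6. Over the 19 chromosomes the densities had a Spearman correlation of -0.42 and a Pearson correlation of -0.47, given as a description because all points come from the same 4 libraries.

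**Figure D2:**
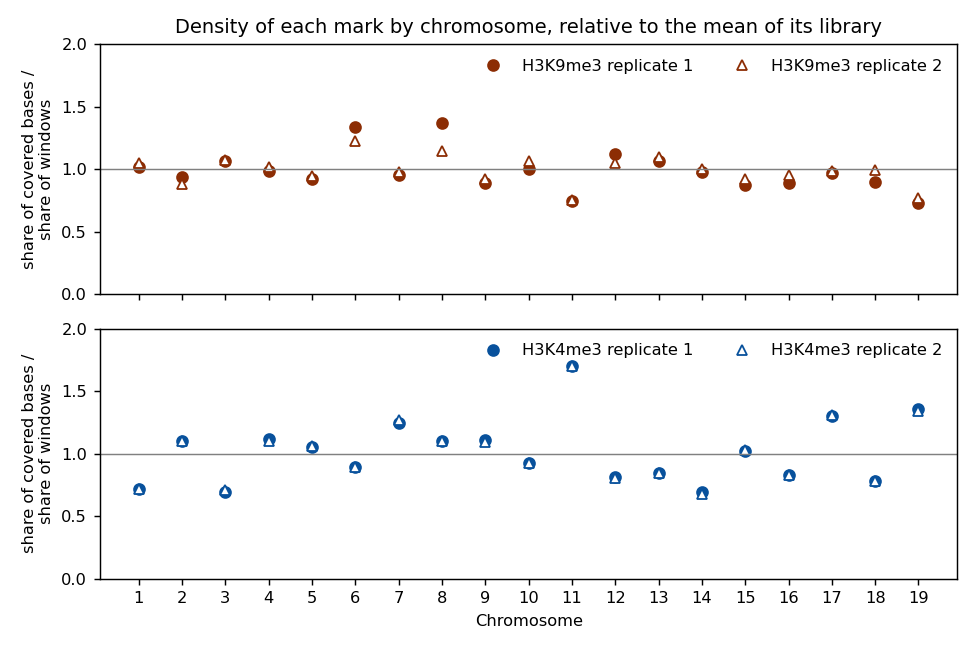
Share of each library's covered bases on a chromosome divided by the chromosome's share of windows (y axis, 1 is the library mean) for chromosomes 1 to 19, H3K4me3 and H3K9me3 in separate panels, with filled circles for replicate 1 and open triangles for replicate 2. Chromosome 11 reaches 1.70 in both H3K4me3 libraries and 0.741 and 0.757 in the H3K9me3 libraries.

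At the scale of single regions the marks seldom met. Only 80 H3K9me3 regions (0.523%) and 80 H3K4me3 regions (0.466%) shared at least 1 bp. They shared 29.7 kb, where placing each mark independently by its covered length would give 146 kb, a ratio of 0.203. With the expectation computed inside each 1-Mb window, which takes each window's own densities into account, the ratio was 0.240. Single libraries gave 0.252 and 0.268 for H3K9me3 replicate 1 against the H3K4me3 libraries, and 0.249 and 0.264 for replicate 2. Every pair of libraries thus shared at most 0.268 of the bases expected from covered length. With the expectation inside each window, the 4 pairs gave 0.296 to 0.315. The count of co-marked H3K4me3 peaks differed more, at 76 and 83 with H3K9me3 replicate 1 and 225 and 247 with replicate 2. The ratio was less extreme under other settings, at 0.420 with every region set to 1000 bp about its midpoint and 0.540 with the same minimum q as above.

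H3K27ac put these values on a scale. Of the H3K4me3 regions, 7252 (42.2%) overlapped an H3K27ac region found in both of its libraries, and those marks shared 50.8 times the bases given by covered length. Of the H3K9me3 regions, 129 (0.843%) overlapped H3K27ac, with a ratio of 0.556. H3K9me3 therefore had its lower ratio with H3K4me3, 0.203 against 0.556, a difference that was not tested. H3K27ac was profiled by the same method as H3K4me3.

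The scarcity of H3K9me3 extended beyond the edges of H3K4me3 regions. Relative to its mean over the genome, H3K9me3 coverage was 0.198 inside H3K4me3 regions, 0.333 within 1 kb outside them, 0.484 at 2 to 5 kb, 0.630 at 5 to 10 kb and 0.936 at 20 to 50 kb. It passed the mean at 50 to 100 kb (1.10), was 1.24 at 100 to 200 kb and 1.22 at 200 to 500 kb, and stood at 1.04 beyond 500 kb. Both libraries followed this course, with 0.245 and 0.232 inside, 0.635 and 0.645 at 5 to 10 kb, and 1.09 and 1.07 at 50 to 100 kb. In the other direction, H3K4me3 coverage around H3K9me3 regions was 0.198 inside, 0.304 within 1 kb, 0.524 at 5 to 10 kb and 0.924 at 50 to 100 kb. It went on to 1.60 at 200 to 500 kb and 2.30 beyond 500 kb. The mean in these ratios was taken over fewer bases than the 2469 Mb of the windows. The 0.198 inside thus rests on the same shared 29.7 kb as the 0.203 above, on another baseline.

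**Figure D3:**
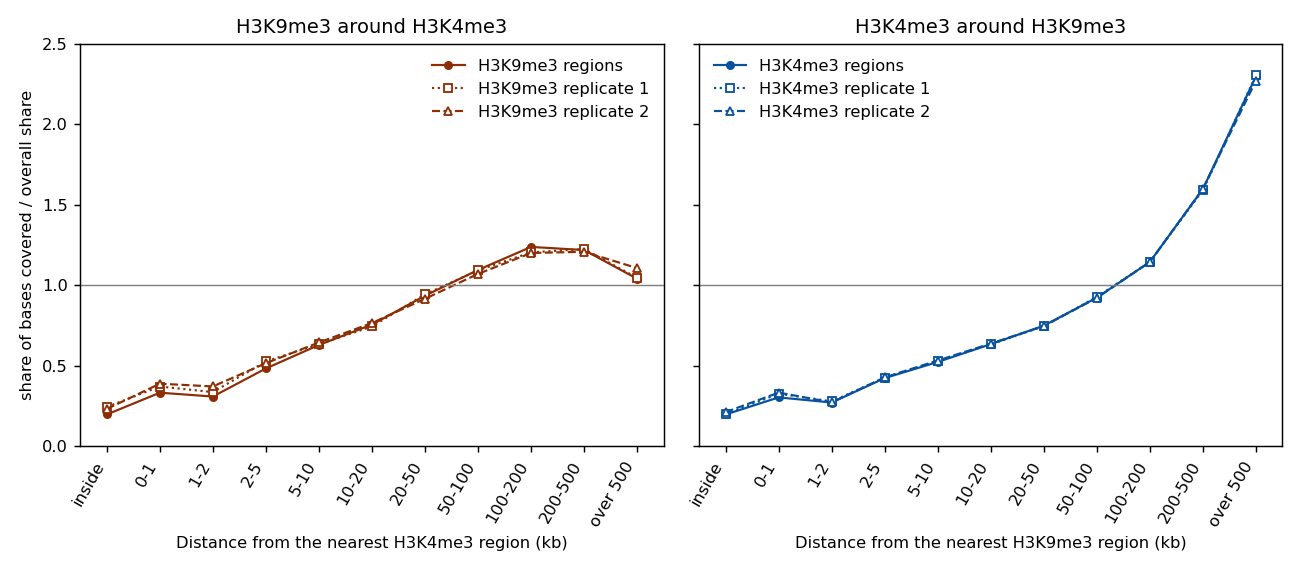
Coverage of one mark by distance from the nearest region of the other (x axis, kb, classes of unequal width), divided by its coverage over all bases (y axis, 1 is the genome mean), for kept regions and each library of wild-type cells. H3K9me3 around H3K4me3 stays below 1 out to the class of 20 to 50 kb, and H3K4me3 around H3K9me3 stays below 1 out to 50 to 100 kb.

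Regions of a mark lay closer to their own kind. The median H3K9me3 region was 29.1 kb from the next H3K9me3 region and 128 kb from the nearest H3K4me3 region. For H3K4me3 the medians were 21.7 kb to its own mark and 115 kb to H3K9me3. The nearest region of the same mark was closer than the nearest of the other for 76.7% of the regions of each mark (11730 and 13184). Distances from H3K4me3 to H3K9me3 changed with the H3K9me3 library, at 96.5 and 96.8 kb to replicate 1 and 48.6 and 48.1 kb to replicate 2, and the median was 49.0 kb without H3K9me3 replicate 1. Within 10 kb of the other mark lay 1133 H3K9me3 regions (7.41%) and 1037 H3K4me3 regions (6.04%).

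Read along the chromosome, the marks came in blocks. Of 32457 pairs of adjacent regions, 74.4% were of the same mark, where a random order of these regions would give 51.3%. The replicate 1 lists gave 75.8% where a random order would give 51.3%, and the replicate 2 lists 77.5% where it would give 57.5%. Uninterrupted runs of at least 10 regions numbered 343 for H3K9me3, holding 5780 regions, and 412 for H3K4me3, holding 7977. The longest H3K9me3 run had 84 regions at chr15:13674698-25246438, a span of 11.6 Mb. The next were 57 regions at chr4:59983585-62118986 over 2.14 Mb and 57 at chr6:74364331-81839517 over 7.48 Mb. The longest H3K4me3 run had 107 regions at chr11:95805055-98478165 over 2.67 Mb, followed by 80 at chr17:24143615-26472812 and 78 at chr10:79271134-80797783. H3K9me3 runs on chromosomes 15 and 6 were thus sparse and long, while that on chromosome 4 packed the same number of regions as that on chromosome 6 into a shorter span.

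The regions farthest from the other mark lay inside the longest runs, with 1 exception. The 5 farthest H3K9me3 regions were on chromosome 15, from chr15:19142287-19143191 to chr15:19499725-19500384, between 5.86 and 6.07 Mb from H3K4me3. Of the 5 farthest H3K4me3 regions, 4 lay on chromosome 11 from chr11:97077697-97079642 to chr11:97206436-97207325, and the exception was chr11:59936773-59937410. They were 1.29 to 1.33 Mb from H3K9me3. More H3K9me3 than H3K4me3 regions had over 1 Mb to the other mark, 713 (4.66%) against 113 (0.658%).

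Kept regions of both marks had nearly the same median width but reached it differently. The median was 1114 bp for H3K9me3 and 1109 bp for H3K4me3, with 10th to 90th percentiles of 434 to 1955 bp and 644 to 1778 bp. A kept region spans the peaks of both libraries. Single peaks were narrower for H3K9me3, with library medians of 369 and 580 bp against 967 and 972 bp, and these did not overlap between marks (474.5 ± 149 against 969.5 ± 3.54 bp, SD, n = 2 each, exact permutation p = 0.333). Within H3K9me3 regions, peaks covered a median of 478 bp in replicate 1 and 1013 bp in replicate 2, and replicate 2 covered more in 83.2% of regions. Within H3K4me3 regions the medians were 1028 and 1039 bp, and replicate 2 covered more in 52.5%. The Spearman correlation of covered length between replicates over regions was 0.39 for H3K9me3 and 0.92 for H3K4me3, and that of fold was 0.58 and 0.93.

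Kept H3K9me3 regions were more often very narrow and, as merged over both libraries, more often wide. Under 500 bp were 1893 (12.4%) of them against 547 (3.18%) of the H3K4me3 regions, and 2 kb or more 1346 (8.80%) against 922 (5.37%). Single peaks gave the reverse order for wide ones, since 0.311% and 2.87% of H3K9me3 peaks were 2 kb or more in replicates 1 and 2, against 3.79% and 4.09% of H3K4me3 peaks. Narrow peaks kept the order, with 62.9% and 43.6% of H3K9me3 peaks under 500 bp against 13.9% in both H3K4me3 libraries. The widest H3K9me3 region was chr9:123728089-123734316, of 6228 bp, with 4144 bp under peaks in replicate 1 and 5162 bp in replicate 2. Then came chr5:15890627-15895510 (4884 bp), chr4:145170777-145175635 (4859 bp), chr13:68208285-68212374 (4090 bp) and chr5:26276377-26280348 (3972 bp). Of these the last overlapped H3K4me3, and the others lay 2.64, 14.4, 9.38 and 246 kb from it in the order given.

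The widest H3K4me3 regions were chr17:34336520-34340812 (4293 bp), chr11:3238837-3243077 (4241 bp), chr10:42150056-42154074 (4019 bp), chr9:62248040-62252004 (3965 bp) and chr9:114389625-114393553 (3929 bp). Their distances to H3K9me3 ran from 65.9 kb to 279 kb, and 4 of the 5 overlapped H3K27ac. The widest region of each mark was among the weakest of its lists by fold, at percentiles of 0.0432 for H3K9me3 and 1.86 for H3K4me3. Over all regions, width and fold had a Spearman correlation of -0.22 for H3K9me3 and 0.14 for H3K4me3.

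**Figure D4:**
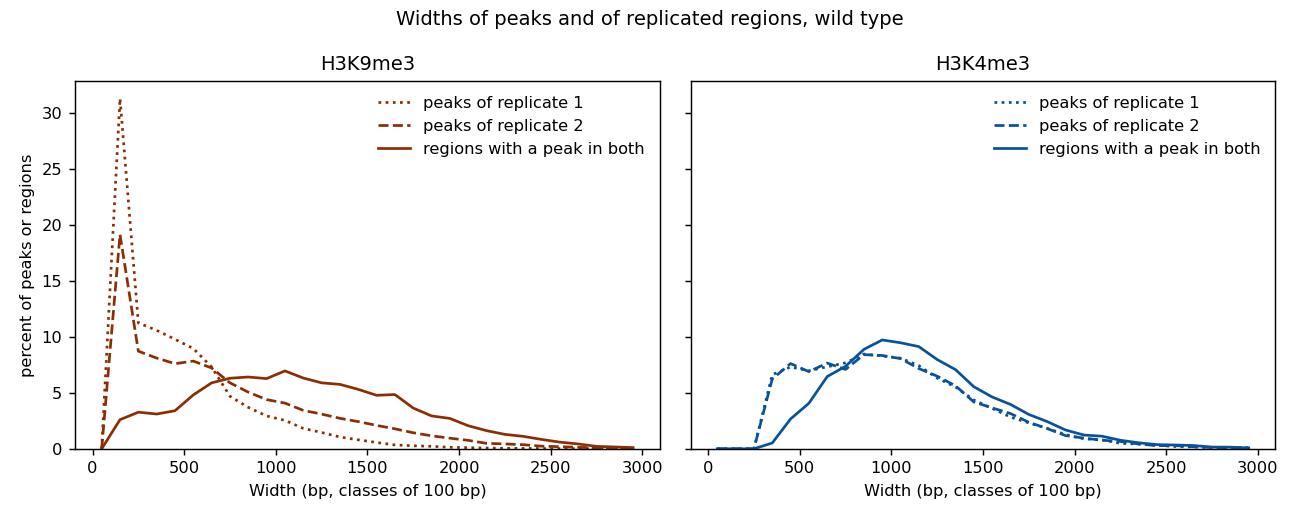
Widths (x axis, bp, in classes of 100 bp) of single-library peaks and of kept regions as a percent of their set (y axis), for H3K9me3 and H3K4me3 in wild-type cells. The H3K4me3 libraries lie on top of each other with medians of 967 and 972 bp, while those of H3K9me3 have medians of 369 and 580 bp.

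The 80 regions of each mark that did overlap formed 80 pairs, called co-marked below. Peaks of both marks over the same bases do not show that both modifications lie on the same nucleosome, allele or cell, which was not tested. Sites that give high signal with any antibody were not filtered out, and no library without an antibody was analysed. In 59 pairs the regions overlapped in part, 24 of them over at least 50% of the shorter region, in 13 the H3K9me3 region lay inside the H3K4me3 region, and in 8 the reverse held. The shared stretch had a median of 273 bp (range 3 to 1556), and in 45 of all 80 pairs it was at least 50% of the shorter region. Co-marked regions were narrower than the others of their mark, with medians of 974.5 against 1115 bp for H3K9me3 and 726 against 1110 bp for H3K4me3. Among H3K4me3 regions of 500 bp or less, 14 of 555 (2.52%) were co-marked, and 0 of the 58 over 3 kb were.

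Strength within a mark's own lists set the co-marked H3K9me3 regions apart more than the H3K4me3 ones. The median percentile of fold was 81.4 for co-marked H3K9me3 regions and 54.4 for the others, against 50.8 and 54.8 for H3K4me3. Of the 1530 strongest H3K9me3 regions, the top 10%, 30 were co-marked (1.96%), while no other group of 10% exceeded 0.719%. For H3K4me3 the shares ran from 0.233% to 0.757% with no order by strength. The strongest H3K9me3 regions were also narrow, with a median of 608 bp, and lay nearer to H3K4me3, at a median of 81.1 kb. Fold and width were related in H3K9me3 (Spearman -0.22), and strength was not separated from width or from the kind of peak call.

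**Figure D5:**
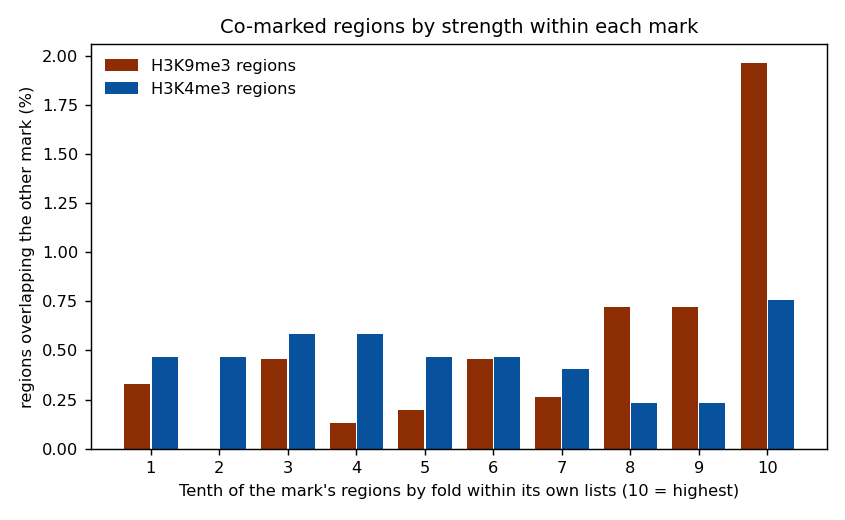
Percent of regions that overlap the other mark (y axis) in each class of 10% of a mark's regions ranked by fold within its own lists (x axis, class 10 is the highest). The bar for the strongest H3K9me3 regions stands at 1.96%, and all other bars lie at or below 0.757%.

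Co-marked H3K9me3 regions carried H3K27ac far more often than the others. H3K27ac peaks overlapped 40 of the 80 (50%) in H3K27ac replicate 1 and 34 (42.5%) in replicate 2, against 1.18% and 1.02% of the remaining H3K9me3 regions. Co-marked H3K4me3 regions did so about as often as other H3K4me3 regions, at 53.8% and 48.8% against 51.9% and 50.5%. H3K9me3 regions that came within 1 kb of H3K4me3 without touching it, 84 in number, overlapped H3K27ac in 1.19% of cases where both H3K27ac libraries were required, against 37.5% of the co-marked regions. By the same rule, H3K27ac overlapped 47.5% of the H3K4me3 regions within 1 kb of H3K9me3 without touching it, and 42.5% of the co-marked ones. An H3K9me3 region that shares bases with H3K4me3 can meet the H3K27ac of that same H3K4me3 region. The contrast among H3K9me3 regions thus cannot be told apart from their overlap with H3K4me3.

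The pairs were scattered over 18 of the 19 chromosomes, with the most on chromosome 8. That chromosome held 14 of 80 pairs (17.5%), against 5.82% of the H3K4me3 and 6.97% of the H3K9me3 regions, and 7 of the 14 lay between 19 and 22 Mb. Chromosome 15 held none.

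In 10 pairs both regions were in the upper part of their lists, at or above the 90th percentile of fold on average over the libraries. The next pair stood at 86.9. The H3K9me3 region was inside the H3K4me3 region in 6 of the 10 and under 500 bp in 8, and in 8 both H3K27ac libraries had a peak. The strongest was chr1:24652072-24652305, an H3K9me3 region of 234 bp within the H3K4me3 region chr1:24651689-24652338, with folds of 16.4 and 13.9 for H3K9me3 and 24.9 in both H3K4me3 libraries. This site also had a peak in both H3K27ac libraries and in both del-cIDR libraries of each mark. Whether it gives signal with any antibody was not tested.

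The second pair differed in form, with the H3K4me3 region inside a wide H3K9me3 region of 2558 bp at chr9:3023425-3025982, just past the first 3 Mb of the chromosome. Its folds were 6.96 and 6.35 for H3K9me3 and 17.7 and 15.9 for H3K4me3. At chr16:43589875-43590147 an H3K9me3 region of 273 bp, with folds of 5.28 and 6.78, lay within the H3K4me3 region with the highest fold in both libraries, 28.5 and 26.7. At chr16:50814797-50815238 the folds were 8.87 and 9.35 for H3K9me3 and 15.5 and 12.8 for H3K4me3. The H3K9me3 regions of the others were chr3:4227373-4227583, chr8:20016139-20016473, chr16:57211767-57212039, chr8:21098335-21099118, chr8:70036970-70037138 and chr11:108902479-108902856. Of these, chr3:4227373-4227583 and chr8:70036970-70037138 had no H3K27ac peak in either library.

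Of the pairs, the H3K4me3 side was seen again in the del-cIDR libraries at a lower share than H3K4me3 regions in general, and the H3K9me3 side at about the general share. Peaks of both marks were present in all 4 del-cIDR libraries at 44 of the 80 pairs (55.0%) and at 8 of the 10 strongest. The H3K4me3 side was found in both del-cIDR libraries at 52 pairs (65%), where all kept H3K4me3 regions gave 90.7%, and the H3K9me3 side at 69 (86.3%), where all kept H3K9me3 regions gave 85.9%. These differences were not tested, and at 9 pairs neither H3K4me3 library of del-cIDR cells had a peak. Kept regions of del-cIDR cells, 24924 of H3K9me3 and 16811 of H3K4me3, shared 0.230 of the bases given by covered length, and 74.8% of adjacent regions were of the same mark where a random order would give 53.0%.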

How the data were processed

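The submitters' processing notes name fastp and BWA, SAMtools and Picard, and also MACS2 and featureCounts, with build GRCm39. Their order, versions and settings, and any control library, are not given in the sources. The authors deposited 1 peak list per library, called per sample. The deposited columns, read by the standard layout of narrow and broad peak files, are a fold enrichment (a linear ratio over the background in that library) and the −log10 of p and q, all as the authors' peak caller gave them. Deposited −log10 q values started at 1.00 (broad) and 1.30 (narrow). Weaker sites are not listed, and read depth is unknown, so no counting interval could be given, and list length may follow depth.

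Coordinates were handled as GRCm39 in Python 3.11.15 (numpy 2.4.6, pandas 2.3.3, scipy 1.17.1). Peaks sharing at least 1 bp were merged. Expected shared bases are the product of the covered lengths over the span of the windows. Coverage, overlap and distance steps were tested on simulated intervals. Region strength is the percentile of fold within each list, averaged over 2 libraries.

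Windows named are the 10 highest in both marks and the 5 highest in each; regions named are the 5 widest and the 5 farthest per mark and the 10 strongest co-marked pairs. These members and lists were chosen with earlier results of these data known. The gene tables at hand are of another build, so no gene, marker or sequence was assigned, and the cell type label was not checked. Replicate numbers were not used to pair the libraries, and alternatives are given in the closing section. Peaks on X, Y and other sequences were left out.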

Additional observations from a re-analysis of the deposited data

Results flagged for a closer look

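Peaks outside chromosomes 1 to 19 entered no comparison above and are given as counts per library. On X there were 747 and 2339 peaks in H3K9me3 replicates 1 and 2, and 615 and 630 in H3K4me3 replicates 1 and 2. On Y there were 63 and 263 for H3K9me3, and 7 and 9 for H3K4me3. On the mitochondrial genome there were 5 and 4 for H3K9me3, and 5 and 5 for H3K4me3. Sequences with a name starting in dm, which the labels do not explain, carried 12 and 6 H3K9me3 peaks, and 872 and 774 H3K4me3 peaks, so there the marks stood in the reverse order of Y. Other unplaced sequences carried 113 and 168 H3K9me3 peaks, and 14 and 13 H3K4me3 peaks. No library without an antibody was analysed here, so these counts have no background beside them.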

How the results depend on the processing

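Of 148 alternative values, 95 stayed within the tolerance, 50 moved and 3 reversed, and the causes were not tested. The tolerance was 1.5 times for counts, 1 SD over the 4 pairings of libraries for other values and an unchanged sign for log2 ratios, and it was wide for some. Within it, co-marked H3K4me3 regions went from 0.466% to 0.211% at the stricter q below, and windows leaning to H3K9me3 from 968 to 650 at a factor of 4. Windows rich in both went from 11 to 16 at that stricter q, also within the tolerance. The 3 reversals were the window correlation at a −log10 q of at least 2 (0.032) and the log2 ratio of covered length, near 0, without H3K9me3 replicate 1 (0.59) or H3K4me3 replicate 2 (0.012). That stricter q left 5250 and 15266 H3K9me3 peaks and gave 3023 H3K9me3 regions, 36 co-marked regions, a ratio of shared to expected bases of 0.540, and median distances of 98.0 kb (H3K9me3 to H3K4me3) and 421 kb (the reverse). Lists of equal length (19055 peaks) gave 9213 H3K9me3 regions, 0.230, a window correlation of -0.071, and 117 and 173 kb. Requiring 50% overlap gave 45 co-marked regions and 0.173. Merging peaks within 1000 bp gave a width ratio of 1.16 and 130.4 kb. Windows of 0.5 Mb gave 22 rich in both, 1959 leaning to H3K9me3 and 1134 to H3K4me3. Windows of 2 Mb gave 450, 242 and a correlation of -0.19. The top 20% and 5% gave 57 and 0 windows rich in both, and a factor of 4 gave 276 leaning to H3K4me3. Window counts at another window size or top share are not on the scale of the main count. The number of windows, or the count that independent ranks would give, changes with the setting and was not set beside them.

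Leaving out 1 library in turn gave 15297 to 41183 H3K9me3 regions, 72 to 203 co-marked H3K4me3 regions (0.419% to 1.18%), 0.204 to 0.252 for shared over expected bases, -0.22 to -0.15 for the window correlation, 6 to 12 windows rich in both, 114 to 129.8 kb and 49.0 to 115 kb for the distances, 0.333 to 1.15 for the width ratio -1.003 to 0.59 for log2 covered length, 0.13 to 1.10 for log2 peak number and -1.39 to -0.74 for log2 peak width. Alternatives chosen after seeing the data were regions of 1000 bp (0.420), the expectation within windows (0.240) and the del-cIDR libraries (24924 regions, 124 co-marked, 0.230, 134 and 67.4 kb).

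Replicate numbers were not used to pair the libraries. Deviations of same-numbered libraries over windows had r = 0.0083. The H3K4me3 libraries correlated at 0.99 and so left little deviation to compare, and this value cannot decide whether same-numbered libraries belong together. With the replicate block, same-numbered single libraries gave a mean of 161.5 co-marked regions, 0.258, 117 and 72.3 kb and a width ratio of 0.489.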
